A study of Mus musculus with 6 samples.

Results

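The TGF-β ligands, receptors, and SMADs were examined in bulk RNA-Seq data of the ductus arteriosus (DA), the fetal vessel between the pulmonary artery and the aorta, from C57BL/6 mouse embryos at E17.5. The 10 genes were taken from the deposited table by their symbols: *Tgfb1*, *Tgfb2*, *Tgfb3*, *Ltbp1*, *Tgfbr1*, *Tgfbr2*, *Tgfbr3*, *Smad2*, *Smad3*, and *Smad7*. All 10 were among the 23997 genes listed, and all 10 were among the 12955 genes that passed a filter of a mean of at least 1 FPKM. There were 3 libraries of wild-type embryos (WT0, WT1, and WT2) and 3 of Prdm6f/f SM22-Cre embryos (KO0, KO1, and KO2). In the KO embryos both *Prdm6* alleles are floxed, and the *SM22* (*Tagln*) promoter drives Cre in smooth muscle cells (SMCs), so cells of the vessel that do not use this promoter keep *Prdm6*. No sample was treated, and whether the WT embryos carried Cre or a floxed allele, or whether tissue was pooled, is not given in the sources used here.

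TGF-β is secreted in a latent form, folded inside its own propeptide and tied to a latent TGF-β binding protein such as LTBP1, which anchors it in the extracellular matrix. Once released, the ligand brings together the type II receptor TGFBR2 and the type I receptor TGFBR1, and the latter phosphorylates SMAD2 and SMAD3, which enter the nucleus with SMAD4. In vascular smooth muscle this pathway is known for promoting contractile genes and matrix production, and SMAD7, itself a target of the pathway, feeds back to block the type I receptor.

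Expression is given as FPKM (fragments mapped to a transcript, scaled for its length and for the fragments mapped in the library), which allows levels of different genes to be set side by side because it is scaled for length. FPKM holds no read counts, so the depth of each library is unknown. As a rough guide to it, the most frequent ratio of WT1 to each library was taken over genes of low FPKM. That ratio was between 0.93 and 1.19. It rested on as few as 183 genes (WT2), and values near each other do not show equal depth. The libraries differed in the number of genes listed at 0, from 8338 in KO2 to 11886 in WT2. Log2 fold changes of KO against WT are differences of mean log2(FPKM + 0.1), and p values come from limma fitted across all 12955 genes with Benjamini-Hochberg adjustment. The 3 libraries per group are separate samples in the labels. Since the sources used here do not tie each one to a separate embryo, p values set group differences against variation between libraries. In limma that variation is moderated by the variation of all genes tested. Of the defining genes of smooth muscle, *Acta2* was between 396 and 2262 FPKM and *Tagln* between 216 and 1350 FPKM in all 6 libraries, which does not tell the DA from other vessels.

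Several libraries stood apart before any comparison. *Prdm6*, on chromosome 18, was at 41.7, 48.4, and 19.8 FPKM in WT0, WT1, and WT2 and at 48.6, 27.1, and 15.4 FPKM in KO0, KO1, and KO2, so that its level did not separate the groups. The part of *Prdm6* that is floxed is not given in the sources used here, and an FPKM over the whole gene does not check the deletion. KO0 held both *Xist* (81.0 FPKM) and the Y-linked *Ddx3y* (26.4 FPKM). In WT0 and KO1, *Xist* was at 67.0 and 82.8 FPKM and *Ddx3y* at 0 and 0.383 FPKM. In WT1, WT2, and KO2, *Ddx3y* was at 24.0, 23.4, and 20.1 FPKM and *Xist* at most 0.053 FPKM. Each group thus held both patterns. The 12 heart muscle markers summed to 1273 FPKM in WT1 and 1384 FPKM in KO2, and to between 62.9 and 606 FPKM in the other 4 libraries. Directions below rest on the deposited labels.

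None of the 10 genes had an adjusted p under 0.05, against 1 of all 12955 genes (0.00772%). That gene was *Rn45s*, the ribosomal RNA precursor, listed at 0 in the 3 WT libraries and at 3060, 3806, and 4520 FPKM in KO0, KO1, and KO2. Whether the libraries of both groups were prepared and counted alike is not given in the sources used here, and for every gene below a difference of that kind between the groups and the genotype cannot be told apart. At an unadjusted p under 0.05 there was 1 gene of the 10, *Tgfb2*, which was lower in KO, against 1073 of all genes (8.28%), of which 644 were lower (4.97%) and 429 higher (3.31%). The values of the groups did not overlap for 3 of the 10. *Tgfb2* was lower in every KO library than in any WT library, as were 1016 of all genes tested (7.84%). *Smad2* and *Smad3* were higher in every KO library than in any WT library, as were 1064 of all genes tested (8.21%). For the other 7 genes the groups overlapped. The median log2 fold change of the 10 genes was 0.22, beside 0.07 for all genes tested, with 3 of the 10 below 0 (*Tgfb2*, *Tgfb3*, and *Ltbp1*) and 7 above.

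**Figure D1:**
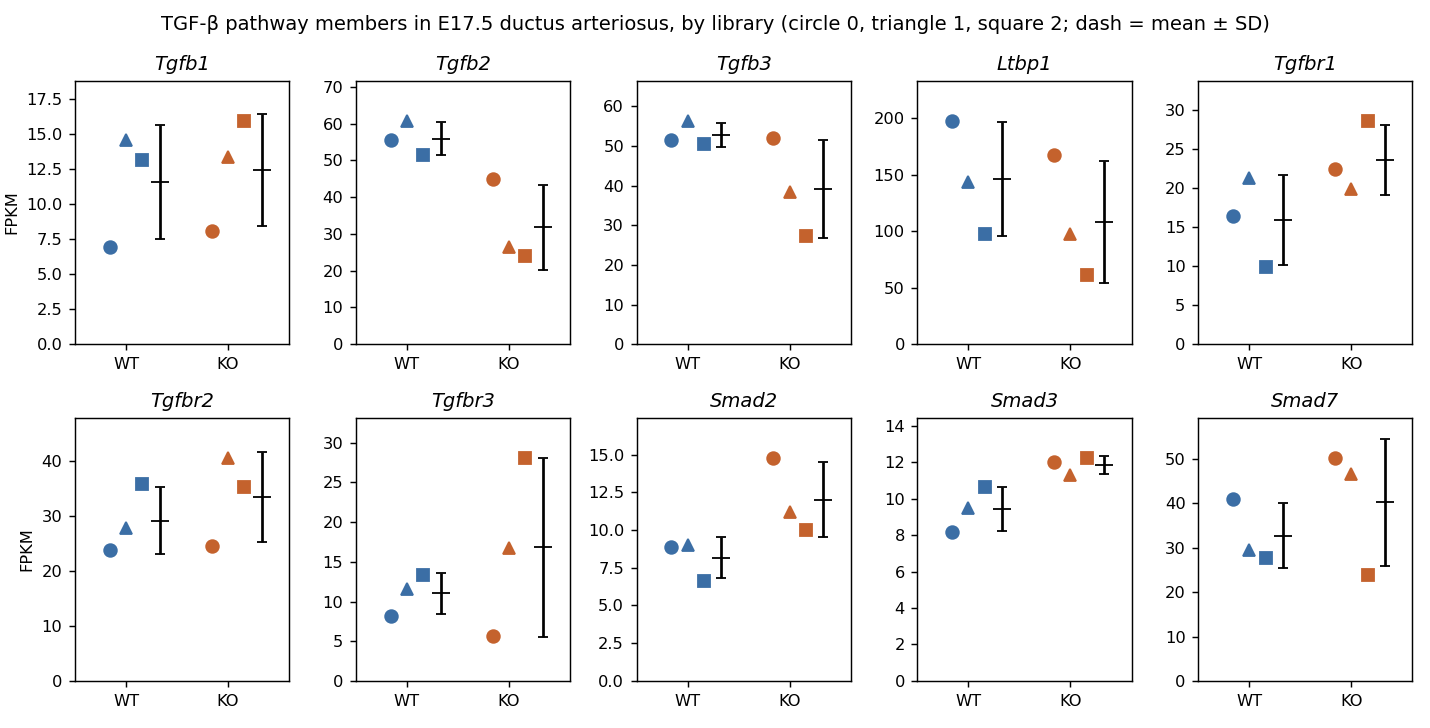
FPKM (linear axes from 0) of the 10 genes in each library of E17.5 DA, with circles, triangles, and squares for libraries 0, 1, and 2 of each group and dashes with bars for the mean ± SD of 3 libraries. *Tgfb2* lay at 24.0 to 44.9 FPKM in KO and at 51.5 to 60.7 FPKM in WT, *Smad2* and *Smad3* lay higher in each KO library, and the groups of the other 7 genes overlapped.

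The promoters of 3 genes are shown because these genes carry the comparisons that follow: *Tgfb2* and *Smad3*, whose groups did not overlap in opposite directions, and *Ltbp1*, the most abundant of the 10. Of the 10 genes, 6 had a promoter entry from RefSeq on GRCm38.p6, and *Tgfb3*, *Tgfbr3*, *Smad2*, and *Smad7* had none. *Tgfb2* and *Smad3* had 1 entry each, and *Ltbp1* had 2, of which only the first listed is shown. Each line gives the 250 bases before the annotated start, 5′ to 3′ on the strand of the gene. *Tgfb2* is at chr1:186705990-186706239 on the minus strand, *Ltbp1* at chr17:75005279-75005528 on the plus strand, and *Smad3* at chr9:63757995-63758244 on the minus strand. Capitals mark matches, on either strand, to 7 short motifs. They are the TATA box (TATAAA), the E box (CACGTG), the cAMP response element (CRE, TGACGTCA), its shorter core (CGTCA, which also lies within the CRE), the CCAAT box (CCAAT), the GC box (GGGCGG), and the SMAD box (CAGAC).
Tgfb2: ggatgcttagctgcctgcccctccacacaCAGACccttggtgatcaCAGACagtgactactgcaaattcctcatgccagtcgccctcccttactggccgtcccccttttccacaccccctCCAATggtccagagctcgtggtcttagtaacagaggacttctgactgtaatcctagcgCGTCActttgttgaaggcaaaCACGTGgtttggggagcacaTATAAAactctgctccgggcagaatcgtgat
Ltbp1: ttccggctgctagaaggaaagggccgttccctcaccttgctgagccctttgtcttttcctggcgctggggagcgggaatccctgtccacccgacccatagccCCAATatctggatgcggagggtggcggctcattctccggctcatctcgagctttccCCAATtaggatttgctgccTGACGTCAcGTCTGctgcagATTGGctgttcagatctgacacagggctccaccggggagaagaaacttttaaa
Smad3: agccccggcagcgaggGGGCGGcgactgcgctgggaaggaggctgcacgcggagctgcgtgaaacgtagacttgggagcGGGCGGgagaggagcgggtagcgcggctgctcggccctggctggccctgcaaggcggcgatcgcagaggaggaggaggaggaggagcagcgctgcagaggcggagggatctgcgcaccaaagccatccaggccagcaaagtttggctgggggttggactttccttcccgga

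The *Tgfb2* promoter held a TATA box that began 31 bases before the start, an E box 51 bases before it, a CRE core 72 bases before it, a CCAAT box 130 bases before it, and 2 SMAD boxes. The *Ltbp1* promoter shown held a full CRE that began 73 bases before the start, 3 CCAAT boxes, and 1 SMAD box. It held no TATA box in this window, and the other *Ltbp1* entry is not described here. The *Smad3* promoter held 2 GC boxes and none of the other 6 motifs, and its GC content was 69.2%, beside 53.6% for *Tgfb2* and 56.8% for *Ltbp1*. Of 32851 promoters of the same length, 12.4% held the TATA box, 6.02% the E box, 1.55% the full CRE, 17.8% the CRE core, 33.9% the CCAAT box, 32.7% the GC box, and 42.2% the SMAD box. The E box and the full CRE are thus the least common of these matches, and each is a match of letters and no measured binding site.

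*Tgfb2* (chromosome 1 of GRCm38, 186622792 to 186705989, minus strand) encodes TGF-β2, a ligand that needs the co-receptor betaglycan for efficient binding and is required for normal outflow tract and great vessel development. Its level was 55.7, 60.7, and 51.5 FPKM in WT0, WT1, and WT2 and 44.9, 26.3, and 24.0 FPKM in KO0, KO1, and KO2. The WT libraries lay close together, KO0 lay nearest to them, and KO1 and KO2 were at less than the level of any other library. The mean was 56.0 ± 4.59 FPKM in WT and 31.8 ± 11.5 FPKM in KO (SD, n = 3 each), or 56.8% of the WT mean. KO differed from WT by -0.87 on the log2 scale (SE, the standard error, 0.26, 95% interval -1.47 to -0.27, unadjusted p = 0.0104, adjusted p = 0.535 from limma). Of the 12955 genes tested, *Tgfb2* ranked 250th by p. The two-sided exact permutation test over libraries gave p = 0.1, the smallest that 3 libraries against 3 allow.

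Because its groups did not overlap, *Tgfb2* had to stay lower in KO with any library left out. The log2 fold change then ran from -1.15 without KO0 to -0.70 without KO2. Without the 2 libraries high in heart muscle markers it was -0.64 (unadjusted p = 0.108 from limma). The noncoding gene *Gm29491*, on the opposite strand, shares 124 exonic bases with *Tgfb2*, and the sources used here do not say whether reads were counted by strand.

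*Tgfb3* (chromosome 12, 86056745 to 86079041, minus strand) encodes TGF-β3, the third ligand isoform. It was at 51.4, 56.2, and 50.6 FPKM in the WT libraries and at 52.0, 38.3, and 27.4 FPKM in KO0, KO1, and KO2. KO0 lay within the WT range, whereas KO1 and KO2 lay below it, so that the groups overlapped through KO0 alone. On the log2 scale the KO mean minus the WT mean was -0.47 (SE 0.25, 95% interval -1.04 to 0.10, unadjusted p = 0.0926, adjusted p = 0.641 from limma), and it was -0.70 without KO0, -0.24 without KO2, and -0.19 without both libraries high in heart muscle markers. *Tgfb3* shares 163 and 257 exonic bases with *Gm37804* and *Gm48008* on the opposite strand.

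*Tgfb1* (chromosome 7, 25687002 to 25705077, plus strand) encodes TGF-β1, the isoform that many cell types make, leukocytes and endothelium among them. It was at 6.94, 14.6, and 13.2 FPKM in WT and at 8.07, 13.4, and 15.9 FPKM in KO. One library of each group, WT0 and KO0, was low, and the other 4 lay between 13.2 and 15.9 FPKM. The fitted log2 fold change was 0.12 (95% interval -0.79 to 1.04, adjusted p = 0.932 from limma), and the sign changed with single libraries left out, from -0.21 without WT0 to 0.40 without KO0.

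The ligand genes can also be compared within each library, where a scaling between libraries has no effect. *Tgfb2* made up 48.8%, 46.2%, and 44.7% of the summed FPKM of the 3 ligand genes in WT and 42.8%, 33.8%, and 35.7% in KO. Every KO share lay below every WT share, with a difference of means of -9.16 percentage points (two-sided exact permutation p = 0.1, adjusted p = 0.7 over 7 compositions). *Tgfb3* made up 43.9% ± 1.16 in WT and 46.4% ± 5.002 in KO (SD, n = 3 each, exact permutation p = 0.4), and *Tgfb1* 9.53% ± 2.98 and 16.2% ± 8.03 (exact permutation p = 0.3). With single libraries left out, the difference in the *Tgfb3* share ran from 0.983 percentage points without KO0 (1.20 without KO1) to 5.42 without KO2, and that in the *Tgfb1* share from 2.88 without KO2 to 10.9 without KO0. The ratio of *Tgfb2* to *Tgfb3*, a value chosen after the data were seen, was between 1.02 and 1.08 in WT and between 0.69 and 0.88 in KO. Unlike the shares, the summed level of the ligand genes depends on a scaling between libraries, and it was not a planned comparison. It was 114, 131, and 115 FPKM in WT and 105, 78.0, and 67.3 FPKM in KO. These sums did not overlap, whereas *Tgfb3* and *Tgfb1* taken alone did.

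**Figure D2:**
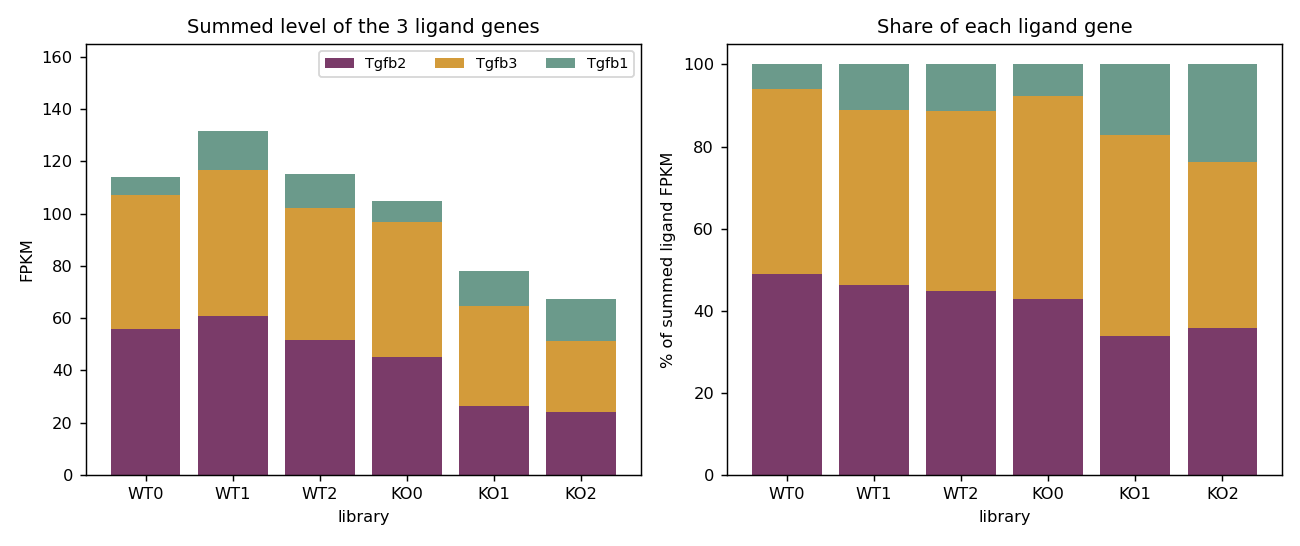
Left, summed FPKM of *Tgfb2*, *Tgfb3*, and *Tgfb1* by library (stacked bars from 0). Right, the share of each gene in that sum. The sum was between 114 and 131 FPKM in WT and between 67.3 and 105 FPKM in KO, and the *Tgfb2* share was at most 42.8% in KO and at least 44.7% in WT.

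*Ltbp1* (chromosome 17, 75005568 to 75392512, plus strand) encodes a binding protein that is secreted with the latent ligand and fixes it to fibrillin and fibronectin. It was the most abundant of the 10 genes, above 96.8% of all genes tested by mean FPKM, and was higher than *Tgfb3*, the next in order, in 6 of 6 libraries. It was at 198, 144, and 97.3 FPKM in WT and at 167, 97.2, and 60.9 FPKM in KO. Both groups were widely spread, the highest in each being library 0 and the lowest library 2. A log2 fold change of -0.49 was fitted (SE 0.40, 95% interval -1.41 to 0.43, adjusted p = 0.723 from limma), and it was -0.14 without KO2, -0.25 without WT0, -0.76 without WT2, and -0.87 without KO0. The ratio of *Ltbp1* to the summed ligands was 1.22 ± 0.458 in WT and 1.25 ± 0.343 in KO (SD, n = 3 each, two-sided exact permutation p = 0.9).

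The receptor genes had log2 fold changes above 0, and each group overlapped the other. *Tgfbr1* (chromosome 4, 47353222 to 47414931, plus strand), the type I receptor kinase, was at 16.4, 21.3, and 9.91 FPKM in WT and at 22.5, 19.9, and 28.6 FPKM in KO. WT1 was the only WT library above a KO library, and it exceeded KO1 alone. KO differed from WT by 0.62 on the log2 scale (SE 0.32, 95% interval -0.12 to 1.36, unadjusted p = 0.0885, adjusted p = 0.639 from limma), and it was 0.32 without WT2, the lowest library.

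*Tgfbr2* (chromosome 9, 116084293 to 116175360, minus strand), the type II receptor that binds the ligand first, was at 23.9, 27.8, and 35.9 FPKM in WT and at 24.5, 40.6, and 35.3 FPKM in KO. Library 0 was the lowest of both groups, and the log2 fold change was 0.19 (95% interval -0.41 to 0.78, adjusted p = 0.821 from limma). It ranged from 0.03 without KO1 and 0.05 without WT0 to 0.35 without WT2 and 0.40 without KO0. The ratio of *Tgfbr1* to *Tgfbr2* was 0.577 ± 0.264 in WT and 0.738 ± 0.222 in KO (SD, n = 3 each, exact permutation p = 0.5).

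*Tgfbr3* (chromosome 5, 107106570 to 107289629, minus strand) encodes betaglycan, the co-receptor that presents TGF-β2. It was at 8.22, 11.5, and 13.3 FPKM in WT and at 5.64, 16.7, and 28.1 FPKM in KO. KO0 was the lowest and KO2 the highest of all 6 libraries, a range of 4.98-fold within 1 group and the widest of the 10 genes. On the log2 scale the KO mean minus the WT mean was 0.35 (95% interval -0.94 to 1.65, adjusted p = 0.844 from limma), and it ranged from -0.15 without KO2 to 0.996 without KO0. A gene on the same strand, *Gm43422*, shares 297 exonic bases with *Tgfbr3*.

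The genes of the receptor-activated SMADs had the lowest mean levels of the 10. *Smad2* (chromosome 18, 76241580 to 76310963, plus strand) was at 8.85, 9.03, and 6.64 FPKM in WT and at 14.8, 11.2, and 10.01 FPKM in KO. KO2, the lowest KO library, was above WT1, the highest WT library, by less than 1 FPKM. The fitted log2 fold change was 0.54 (SE 0.29, 95% interval -0.14 to 1.23, unadjusted p = 0.104, adjusted p = 0.649 from limma; two-sided exact permutation p = 0.1), and it stayed between 0.38 and 0.66 with each library left out.

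*Smad3* (chromosome 9, 63646767 to 63757994, minus strand), a SMAD that binds DNA directly, was at 8.19, 9.50, and 10.6 FPKM in WT and at 12.01, 11.3, and 12.2 FPKM in KO. The KO libraries lay within 1.08-fold of each other, the narrowest range of any gene of the 10 in either group, and WT2 lay closest to them. A log2 fold change of 0.33 was fitted (SE 0.25, 95% interval -0.25 to 0.92, unadjusted p = 0.225, adjusted p = 0.712 from limma; two-sided exact permutation p = 0.1). Summed over both genes, the level was 17.6 ± 0.808 FPKM in WT and 23.9 ± 2.54 FPKM in KO (SD, n = 3 each). The ratio of *Smad2* to *Smad3* was 0.886 ± 0.235 in WT and 1.012 ± 0.208 in KO (SD, n = 3 each, exact permutation p = 0.6).

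*Smad7* (chromosome 18, 75367529 to 75395935, plus strand), the inhibitory SMAD, was at 41.1, 29.4, and 27.6 FPKM in WT and at 50.3, 46.6, and 23.9 FPKM in KO. KO0 and KO1 were the highest and KO2 the lowest of the 6 libraries, so that the KO range enclosed the WT range. KO differed from WT by 0.25 on the log2 scale (95% interval -0.49 to 0.99, adjusted p = 0.809 from limma), and it was 0.59 without KO2, 0.42 without WT0, 0.14 without WT2, 0.11 without KO1, and 0.05 without KO0. *Smad7* stood at 1.87 ± 0.471 times the sum of *Smad2* and *Smad3* in WT and at 1.67 ± 0.527 times in KO (SD, n = 3 each, exact permutation p = 0.8).

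**Figure D3:**
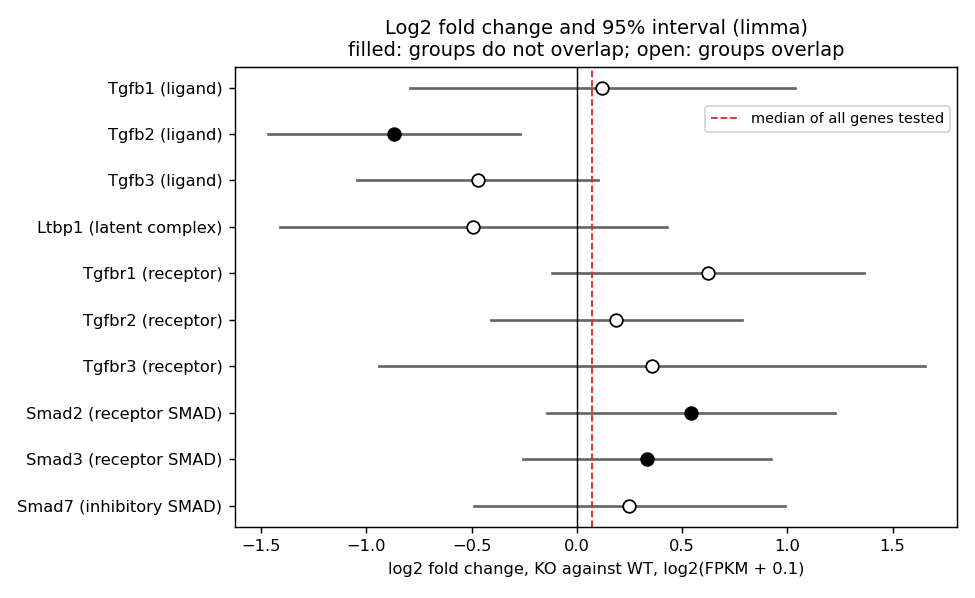
Log2 fold change of KO against WT on the log2(FPKM + 0.1) scale (points) with its 95% interval from limma (lines) for the 10 genes, beside the median of all genes tested (dashed line). The interval left out 0 for *Tgfb2* alone, whose adjusted p was 0.535, and included 0 for the other 9 genes.

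In both groups *Ltbp1* had the highest mean level of the 10 genes, and *Smad2* and *Smad3* had the lowest. Over all 6 libraries the order was *Ltbp1* (127 FPKM), *Tgfb3* (46.0 FPKM), *Tgfb2* (43.9 FPKM), *Smad7* (36.5 FPKM), *Tgfbr2* (31.3 FPKM), *Tgfbr1* (19.8 FPKM), *Tgfbr3* (13.9 FPKM), *Tgfb1* (12.005 FPKM), *Smad3* (10.7 FPKM), and *Smad2* (10.1 FPKM). Between neighbours in this order, only *Ltbp1* over *Tgfb3* and *Tgfbr2* over *Tgfbr1* held in 6 of 6 libraries, and the mean log2 difference between the latter was 0.71 ± 0.64 (SD over 6 libraries). *Tgfb3* was above *Tgfb2* in 3 of 6 libraries, with *Tgfb2* higher in the 3 WT libraries and *Tgfb3* higher in the 3 KO libraries. For all neighbours except *Ltbp1* over *Tgfb3* and *Tgfbr2* over *Tgfbr1*, the mean within-library log2 difference was smaller than its SD, so most of this order is unresolved. In WT *Tgfb2* was the second most abundant of the 10 genes and in KO the fifth, behind *Ltbp1*, *Smad7*, *Tgfb3*, and *Tgfbr2*.

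Other genes of the pathway were described in 6 lists of 104 genes in all, of which 97 were tested and 0 had an adjusted p under 0.05. At an unadjusted p under 0.05, 8 of the 97 were lower (beside 4.97% of all genes tested) and 1, *Itgb8*, was higher (beside 3.31%, log2 fold change 1.63, adjusted p = 0.564 from limma), although WT2 (11.7 FPKM) exceeded KO0 (9.60 FPKM). The groups did not overlap for 11 of the 97 in the lower direction (11.3%, beside 7.84% of all genes) and for 5 in the higher direction (5.15%, beside 8.21%). No test of these lists against other genes was made.

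Of 18 tested genes listed under storage and activation of the ligand, the median log2 fold change was -0.22, with 14 below 0. Not every gene of this list binds or activates the ligand. The groups did not overlap for 5 of the 18 in the lower direction (beside 7.84% of all genes) and for 1 in the higher (beside 8.21%). The latter was *Itgav*, the αv integrin subunit, at 41.6, 41.5, and 38.1 FPKM in WT and at 50.3, 47.0, and 47.3 FPKM in KO (log2 fold change 0.25, adjusted p = 0.67 from limma). *Itgb5*, a β subunit that pairs with αv, was at 61.1, 62.0, and 57.0 FPKM in WT and at 36.8, 31.0, and 31.6 FPKM in KO (log2 fold change -0.86, SE 0.16, unadjusted p = 0.000816, adjusted p = 0.332 from limma). Its libraries lay close together within each group, and its direction was opposite to that of *Itgav*. *Ltbp2*, a matrix protein related to *Ltbp1* that does not bind TGF-β, was at 62.1, 58.5, and 43.0 FPKM in WT and at 35.8, 29.2, and 16.9 FPKM in KO (log2 fold change -1.04, adjusted p = 0.524 from limma). *Mmp2*, a gelatinase, was at 135, 122, and 163 FPKM against 64.1, 118, and 88.9 FPKM (log2 fold change -0.67, adjusted p = 0.574 from limma). In *Mmp2* the gap between the groups was small, since KO1 came close to WT1.

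Of 23 tested genes known to respond to TGF-β, the median log2 fold change was -0.20, with 16 below 0, 3 without overlap in the lower direction (beside 7.84% of all genes), and 0 in the higher (beside 8.21%). *Tgfbi*, a matrix protein named for its induction by TGF-β, was at 82.4, 61.6, and 47.1 FPKM in WT and at 8.32, 13.3, and 18.4 FPKM in KO. Every WT library exceeded every KO library by more than 2-fold, and the log2 fold change was -2.28 (SE 0.34, unadjusted p = 0.00017, adjusted p = 0.22 from limma). *Ctgf*, a secreted CCN protein, was at 402, 232, and 148 FPKM in WT and at 141, 92.8, and 54.6 FPKM in KO, where WT2 and KO0 nearly met (log2 fold change -1.42, adjusted p = 0.54 from limma). *Fn1*, fibronectin, was at 1381, 1063, and 1044 FPKM against 630, 967, and 759 FPKM (log2 fold change -0.58, adjusted p = 0.6 from limma). The other tested genes of this list overlapped between the groups, among them the collagen genes *Col1a1* (log2 fold change -0.35), *Col1a2* (-0.26), and *Col3a1* (-0.16). *Il11*, at most 0.649 FPKM, and *Cdkn2b*, at most 1.87 FPKM, were below the filter and untested, and did not overlap either, *Il11* being lower and *Cdkn2b* higher in KO.

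Of 24 tested SMADs and SMAD regulators outside the 10 genes, the median log2 fold change was 0.06, with 9 below 0 and 15 above. Without overlap were 1 of the 24 in the lower direction (beside 7.84% of all genes) and 2 in the higher (beside 8.21%). *Smad5*, a SMAD of the BMP branch, was at 21.2, 22.3, and 17.4 FPKM in WT and at 27.4, 32.01, and 23.7 FPKM in KO (log2 fold change 0.44, adjusted p = 0.62 from limma). *Smad1*, which acts with it in the same branch, was at 15.9, 15.6, and 15.4 FPKM in WT and at 11.2, 13.7, and 13.0 FPKM in KO (log2 fold change -0.31, adjusted p = 0.699 from limma). Neither gene overlapped between the groups, and their directions were opposite. *Usp15*, a deubiquitinase that acts on the type I receptor and on SMADs, was at 26.2, 26.4, and 29.6 FPKM against 35.6, 33.6, and 32.2 FPKM (log2 fold change 0.30, adjusted p = 0.652 from limma). *Smad4*, the partner shared by all receptor SMADs, overlapped between the groups (log2 fold change 0.11).

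Beside the counts in the 3 smaller lists, the share of all genes without overlap was 7.84% in the lower direction and 8.21% in the higher. *Acvr1*, a type I receptor of the BMP branch, was the only one of 9 other receptor genes without overlap. It was at 32.1, 36.7, and 43.5 FPKM in WT and at 28.3, 29.1, and 20.2 FPKM in KO (log2 fold change -0.54, adjusted p = 0.591 from limma), and the list had a median of -0.20. *Fstl1*, a secreted follistatin-like protein, was the only one of 7 activin branch genes without overlap, at 2090, 1380, and 1459 FPKM against 1085, 1118, and 871 FPKM (log2 fold change -0.66, adjusted p = 0.588 from limma), with a list median of -0.08. Of 16 non-SMAD transducers, with a median of 0.14, *Map3k7* (TAK1, the kinase of the non-SMAD branch, log2 fold change 0.22) and *Mapk8* (JNK1, log2 fold change 0.92) were higher in every KO library, and no member had an unadjusted p under 0.05. For *Mapk8* the value of WT2, 1.52 FPKM, stood far below those of the other 5 libraries, which were between 6.28 and 8.45 FPKM.

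**Figure D4:**
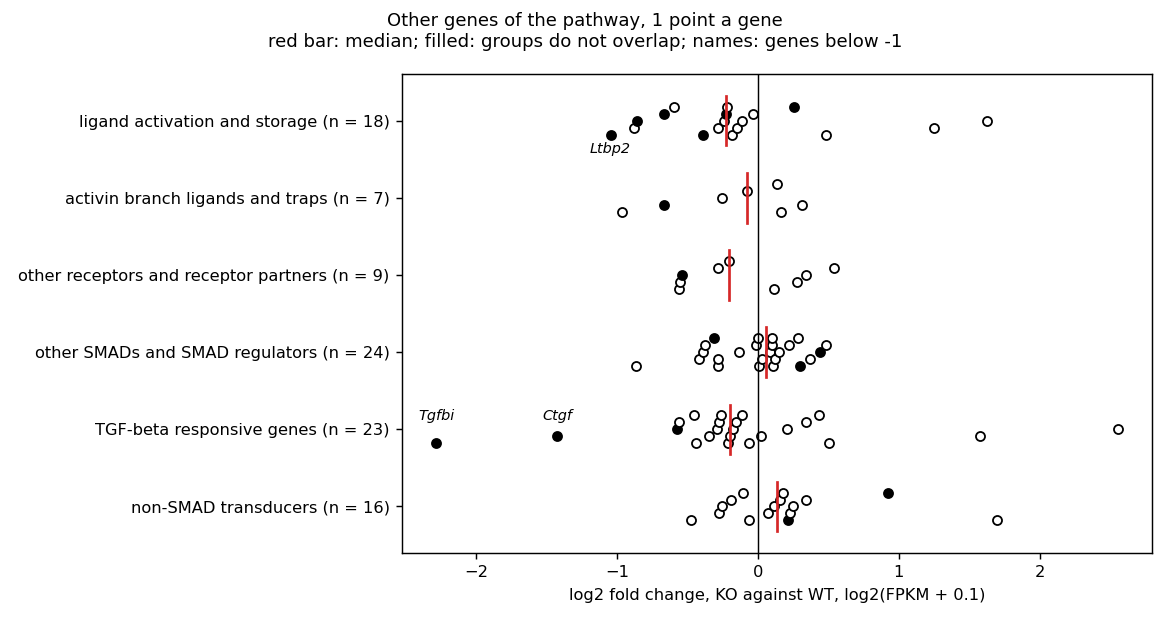
Log2 fold change of KO against WT on the log2(FPKM + 0.1) scale for the 97 tested genes of 6 pathway lists (1 point a gene, filled where the groups do not overlap, red bar for the list median). *Tgfbi* (-2.28) and *Ctgf* (-1.42) lay farthest to the left, and list medians lay between -0.22 and 0.14.

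Summed levels of several cell type markers differed between the groups, although no marker gene had an adjusted p under 0.05, and in bulk RNA fewer cells of a type and less RNA per cell cannot be told apart. The 11 smooth muscle markers summed to 2554 to 5892 FPKM in WT and 948 to 2462 FPKM in KO, with 11 of 11 below 0 in log2 fold change, 6 of 11 without overlap (beside 7.84% of all genes), and none at 0 in any library. Within KO the sum was highest in KO0 (2462 FPKM) and lowest in KO2 (948 FPKM), as were *Tgfb2*, *Tgfb3*, *Ltbp1*, *Smad2*, and *Smad7*. *Tgfb1* and *Tgfbr3* had their lowest KO value in KO0 and their highest in KO2, and *Tgfbr1*, *Tgfbr2*, and *Smad3* took neither order. Within WT the sum was 5892 FPKM in WT0 and 2950 and 2554 FPKM in WT1 and WT2. *Ltbp1* and *Smad7* took the same order, and *Tgfbr2*, *Tgfbr3*, and *Smad3* the reverse. *Tgfb1*, *Tgfb2*, *Tgfb3*, *Tgfbr1*, and *Smad2* were highest in WT1.

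The 9 Schwann cell markers summed to 14.9 to 40.3 FPKM in WT and 47.7 to 174 FPKM in KO, and 8 of 9 were above 0 in log2 fold change. The 10 neuron markers summed to 19.3 to 37.3 FPKM in WT and 43.4 to 80.7 FPKM in KO, with 6 of the 7 tested above 0 and *Th* at 0 in 4 libraries. The 8 erythroid markers in the table summed to 3864 to 7585 FPKM in WT and 4285 to 24361 FPKM in KO, so that their sums overlapped through KO2. The 7 endothelial markers (290 to 413 FPKM in WT, 369 to 527 FPKM in KO) and the 6 fibroblast markers (427 to 984 FPKM and 418 to 940 FPKM) overlapped between the groups, as did those of leukocytes (32.4 to 226 FPKM and 41.3 to 253 FPKM), of epithelium and mesothelium (66.7 to 233 FPKM and 82.1 to 185 FPKM), and of cartilage (28.7 to 46.3 FPKM and 28.2 to 50.4 FPKM). The part of these differences in the values of the 10 genes was not tested.

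**Figure D5:**
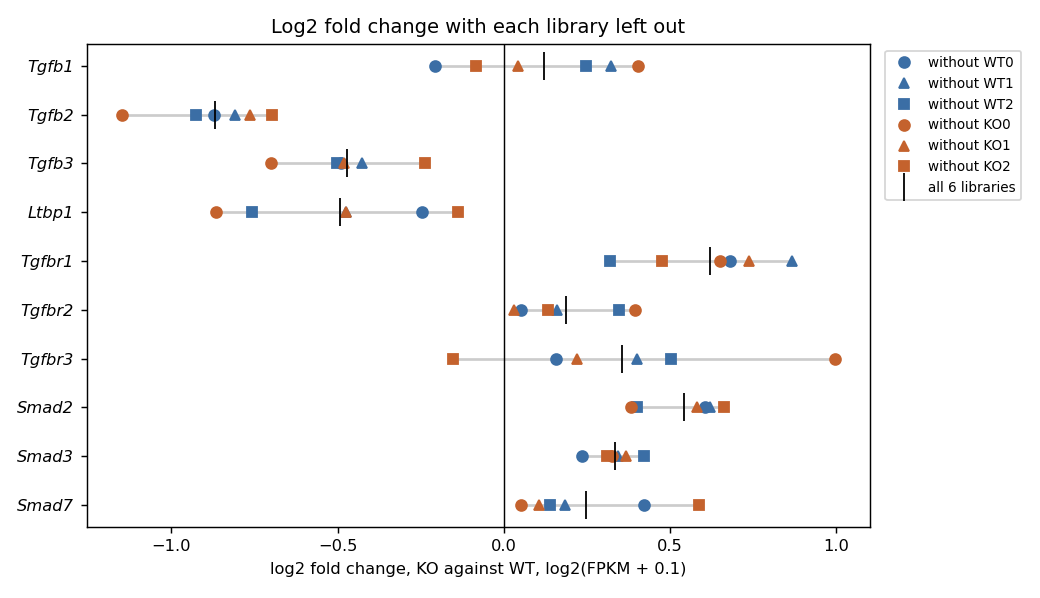
Log2 fold change of KO against WT, log2(FPKM + 0.1), of the 10 genes with all 6 libraries (bars) and with each library left out (blue for WT, orange for KO; circles, triangles, and squares for libraries 0, 1, and 2). *Tgfb2* ranged from -1.15 to -0.70, *Smad2* from 0.38 to 0.66, and *Smad3* from 0.24 to 0.42, and the sign of *Tgfb1* and *Tgfbr3* changed.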

How the data were processed

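The authors trimmed reads, aligned them to mm10 with TopHat2, and estimated FPKM with Cufflinks. The deposited table holds 1 FPKM per gene and library, and tool versions, annotation, and counting strand are not given in the sources used here. Upper quartiles were nearly equal (10.4 to 10.8 FPKM), whereas the FPKM summed over all genes ran from 412183 in WT1 to 818503 in KO2. Whether a scaling between libraries is included is not given in the sources used here. Groups were taken from the labels.

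Genes with a mean of at least 1 FPKM over 6 libraries were tested on log2(FPKM + 0.1), which understates changes of low genes, with limma 3.58.1 in R 4.3.3 (empirical Bayes with a trend, Benjamini-Hochberg adjustment, threshold 0.05). The script was tested on simulated data. Shares, ratios, and single genes were compared by two-sided exact permutation tests. Coordinates are from GENCODE vM21 on GRCm38, the mm10 assembly, and promoters from RefSeq on GRCm38.p6. Of each pathway list, up to 3 genes with the smallest p among those without overlap were named; *Itgb8*, *Itgav*, *Il11*, *Cdkn2b*, the collagen genes, and *Smad4* were added after their values were seen. The 10 genes and all lists were chosen with earlier results of these data known. Alternatives changed the pseudocount, filter, scaling, trend, replicate block, and libraries included.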

Additional observations from a re-analysis of the deposited data

How the results depend on the processing

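No member of the 10 genes had an adjusted p under 0.05 in any of 15 alternatives, and 146 of their 150 log2 fold changes kept their sign. A change of filter, trend, or replicate block cannot alter a log2 fold change here, so those signs were fixed in advance. *Tgfb1* was between -0.21 and 0.40 with each library left out and below 0 without WT0 (-0.21) or KO2 (-0.08). *Tgfbr3* was between -0.15 and 0.996, below 0 without KO2 and, at -0.11, without the 2 libraries high in heart muscle markers (WT1 and KO2). *Tgfb2* was between -1.15 and -0.64 over all alternatives, with adjusted p from limma between 0.429 and 0.871. Of 63 log2 ratios and shares, 7 changed sign, and those with the replicate block could not. With each library left out, log2 *Tgfbr1* to *Tgfbr2* was -0.027 to 0.71 (below 0 without WT2), *Smad2* to *Smad3* -0.022 to 0.37 (without WT2), *Smad7* to *Smad2* plus *Smad3* -0.37 to 0.11 (above 0 without WT0, KO2, or, at 0.0038, both heart-high libraries), and *Ltbp1* to the ligands -0.18 to 0.34 (below 0 without WT2 or KO0). Genes past the threshold were *Rn45s* alone, or 2 genes with no trend (*Brinp3*) and without the heart-high libraries (*Mir3064*), and 1 to 2 with each library left out (2 without WT1, *Oaz1-ps*, or KO2, *Mir3064*). The causes were not tested.

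In counts chosen after seeing the data, the groups did not overlap for 3 to 6 of the 10 genes with each library left out. The 6 were without KO0 (*Tgfb3*, *Ltbp1*, and *Tgfbr3* added, with 12.04% of all genes lower and 14.7% higher). Without the heart-high libraries there were 5 (17.6% and 20.4%). Leaving out libraries cannot make separate groups overlap, so these counts could not fall below 3. For the same reason the signs of *Tgfb2*, *Smad2*, and *Smad3* with libraries left out were fixed in advance. Unadjusted p under 0.05 was found for 1 to 3 members with each library left out (3 without KO0, 2 without WT1 or KO2) and for 0 without the heart-high libraries, beside 700 to 1282 of all 12955 genes (868 without KO0) and 862.

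Deviations of same-numbered libraries correlated at 0.12, -0.08, and -0.01, and not every library correlated best with its own number. Whether the numbers pair the samples is not given in the labels, and 3 libraries per group are too few to decide it. With the replicate block, *Tgfb2* stayed at -0.87 (adjusted p = 0.446 from limma), 1 gene passed the threshold, and 2 members had an unadjusted p under 0.05 (beside 1118 of all genes), *Tgfb2* and *Ltbp1* (-0.49, SE 0.18, limma unadjusted p = 0.0288 and adjusted p = 0.551). With 3 libraries per group the exact test cannot go below 0.1, and without counts the precision set by depth is unknown.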
